A study of Mus musculus with 2 samples.

Results

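Among the control dermal cells of embryonic mouse flank skin, 1093 made up a group labelled mid dermis and named for the matrix genes Aspn and Ogn. They were 12.9% of the 8467 control cells that passed a dermal gate (exact binomial 95% interval 12.2 to 13.6%) and came from 13566 control barcodes, of 25475 barcodes in both libraries. The members were chosen from measured transcripts, counted as unique molecular identifiers (UMIs), each of which marks 1 captured RNA molecule. A dermal cell had at least 1000 detected genes, at most 10% mitochondrial and under 5% hemoglobin UMIs, and at least 10 UMIs of the collagen genes Col1a1, Col1a2 and Col3a1 together. It also had at most 5 UMIs of the keratins Krt5, Krt14 and Krt15 and 0 UMIs of Myod1, Pax7, Cdh5, Ptprc and Sox10, which mark muscle, endothelial, blood and neural crest lineages. A member further had at least 3 UMIs of Aspn, Ogn and Fibin together, between 0.05% and 0.3% of its UMIs from Crabp1, and no UMI of Lef1, Gli1 or Ptch1. The levels of all these genes follow from the choice and are given only as a description.

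The study profiled single cells of dorsolateral skin at stage E13.5, from mice in which Axin2CreER was bred to Rosa-lox-STOP-lox-SmoM2YFP. Axin2CreER is a Cre recombinase placed at a gene that responds to Wnt signalling, and SmoM2YFP is an active form of Smoothened, the Hedgehog signal transducer, fused to a yellow fluorescent protein and blocked by the STOP cassette until Cre removes it. The control library (titled as SmoM2YFP control) and the dermal SmoM2YFP mutant library were each made from 2 to 3 pooled littermate embryos, handled at the same time and run on 1 sequencing lane. Which alleles the control embryos carried, and when Cre was induced, are not given in the sources used here. The genotype entry of each library contradicts its title, and groups follow the titles here. Transcripts of eYFP made 0.57 CPM (a gene's UMIs per 1000000 UMIs summed over a set of cells) in the members and 28.1 CPM in the mutant dermal cells that did not meet the rule. With 1 library per group there was no replicate and no test between groups, and all intervals cover counting error only.

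Dermal fibroblasts of the embryonic back become different by depth: cells beneath the epidermis receive Wnt signals and will form papillary dermis and hair follicle condensates, while deeper cells give rise to reticular dermis, fascia and fat. Aspn (asporin) and Ogn (osteoglycin, or mimecan) encode small leucine-rich proteoglycans, secreted proteins that bind collagen fibrils and growth factors, and Fibin encodes a secreted protein first described in the developing fin bud. Crabp1 encodes a retinoic acid binding protein that is known to be abundant in upper dermal fibroblasts, Lef1 a transcription factor of the Wnt pathway, and Gli1 and Ptch1 are targets of Hedgehog signalling.

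Aspn and Ogn are neighbours in the genome. In GENCODE M21 (GRCm38), Aspn lies at chr13:49544443-49567565 and Ogn at chr13:49608046-49624501, both on the plus strand. Omd, another leucine-rich proteoglycan gene, lies between them at chr13:49582462-49592822, Ecm2 lies beside them at chr13:49504810-49532789, and all 4 lie within the gene Cenpp, which is on the minus strand. Whether the counting used strand is not given in the sources used here, so reads of Cenpp and of these genes may not be fully told apart. Fibin lies apart, at chr2:110360917-110363183 on the minus strand. The sequences just upstream of Aspn and Ogn are shown because the members were chosen by these neighbouring genes, and that of Tgfb2 (chr1:186622792-186705989, minus strand) because this signalling ligand was among the 12 highest of the named genes. Each is the 250 bases before the gene's start in RefSeq's GRCm38.p6 annotation, in the gene's direction, with matches to TATAAA on either strand in capitals.
Aspn, chr13:49544193-49544442: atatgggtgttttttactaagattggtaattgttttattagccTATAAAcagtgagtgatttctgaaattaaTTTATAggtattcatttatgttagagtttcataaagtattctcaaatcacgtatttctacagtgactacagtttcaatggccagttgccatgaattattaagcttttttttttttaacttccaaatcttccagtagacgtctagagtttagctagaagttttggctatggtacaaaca
Ogn, chr13:49607765-49608014: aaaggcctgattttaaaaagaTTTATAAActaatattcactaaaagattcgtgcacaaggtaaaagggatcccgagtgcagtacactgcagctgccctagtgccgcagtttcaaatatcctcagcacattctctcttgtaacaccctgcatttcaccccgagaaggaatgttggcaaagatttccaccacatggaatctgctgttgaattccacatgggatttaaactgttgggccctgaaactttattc
Tgfb2, chr1:186705990-186706239: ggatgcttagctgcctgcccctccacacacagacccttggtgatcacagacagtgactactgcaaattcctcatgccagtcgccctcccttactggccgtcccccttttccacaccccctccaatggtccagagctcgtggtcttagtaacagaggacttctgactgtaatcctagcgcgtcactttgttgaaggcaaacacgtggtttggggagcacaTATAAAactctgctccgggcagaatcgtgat

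In the Tgfb2 sequence the match on the gene's own strand began 31 bases before the start. In that of Aspn it began 207 bases before the start, with a match on the opposite strand 178 bases before. The Ogn sequence held overlapping matches on both strands, 227 and 229 bases before the start. The letters TATAAA occurred on either strand in 12.4% of 32851 RefSeq windows of this length, and a match is a description of the letters and not a functional site. Of the neighbouring genes, Omd and Ecm2 had 6 UMIs each in all members (0.683 CPM). Cenpp stood at 18.1 CPM in the members and 27.3 CPM in the other control dermal cells.

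The label "Aspn and Ogn positive" fitted Ogn better than Aspn. Ogn had a UMI in 912 members (83.4%) and Fibin in 933 (85.4%), whereas Aspn had a UMI in 530 (48.5%). Aspn and Ogn occurred together in 422 members (38.6%), all of Aspn, Ogn and Fibin in 346 (31.7%), and Ogn and Fibin without Aspn in 418 (38.2%). Single-gene members were few: 12 had only Aspn, 72 only Ogn and 73 only Fibin. The sum of these UMIs had a median of 6 per member and ran from 3 to 26, with 204 members at the lowest admitted value. Lum (lumican, also a leucine-rich proteoglycan) had a UMI in 97.3% of members and 94.3% of the other control dermal cells. Mfap4, a microfibril-associated protein of elastic fibres, was found in 89.4% and 68.0%. At least 3 of the 5 label markers were found in 97.2% of members, a share that the limit on marker UMIs helps to set. In control epidermal cells, 0 of 544 had 3 or more UMIs of Aspn, Ogn and Fibin, which allows a share of up to 0.551% (3 cells of 544; the exact binomial upper limit is 0.676%). The group is therefore called the Aspn, Ogn and Fibin cells here, and "members" for short. Aspn stood at 166 CPM in the members and 55.9 CPM in the other 7374 control dermal cells, Ogn at 324 and 126 CPM, and Fibin at 326 and 151 CPM. Crabp1 was lower in the members, at 1301 against 2406 CPM. Among the other dermal cells, 2039 met every limit of the rule but had less Crabp1. In these cells, chosen by the same limit on marker UMIs, Aspn stood at 170, Ogn at 299 and Fibin at 382 CPM. The levels of Aspn, Ogn and Fibin were therefore not particular to the members.

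**Figure D1:**
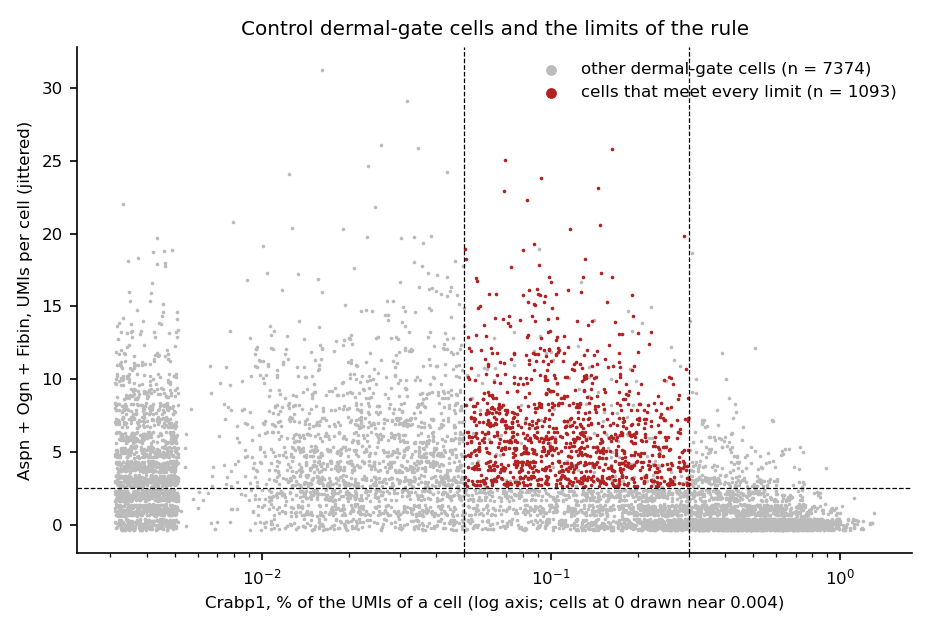
Summed UMIs of Aspn, Ogn and Fibin against Crabp1 share for the control dermal cells, with the limits of the rule on both. The members lie in the band from 0.05% to 0.3% Crabp1 at 3 or more marker UMIs, with a median of 6 marker UMIs and a median Crabp1 share of 0.108%.

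Cells on either side of each limit are given here without a test. Members with exactly 3 marker UMIs had 390 CPM of Mfap4, and the 251 cells with 2 marker UMIs that met the other limits had 308 CPM. At the lower Crabp1 limit, the 102 members from 0.05% to 0.06% had 556 CPM of Mfap4 and the 177 cells from 0.04% to 0.05% had 436 CPM. Other genes were closer there, with Lum at 980 and 898 CPM and Col1a1 at 1659 and 1707 CPM. At the upper limit the Mfap4 values were 316 CPM in 36 members from 0.27% to 0.3% and 337 CPM in 31 cells from 0.3% to 0.33%. Just outside the other limits, Mfap4 stood at 299 CPM in 76 cells with 1 Lef1 UMI and 408 CPM in 47 cells with 1 Gli1 or Ptch1 UMI.

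The members held 8788040 UMIs, with a median of 7273 per cell, against a median of 7098 in the other control dermal cells. Scrublet called 72 members (6.59%) doublets, against 2.82% of the other control dermal cells, and 68 members (6.22%) held both Xist and Y-linked UMIs, against 3.13%. These barcodes were kept. Several comparisons are also given without called doublets, some of them also without the barcodes with both Xist and Y-linked UMIs. After each cell was thinned to 3000 UMIs, 37.1% of 1080 members had a UMI of any of 8 G2M genes (34.2 to 40.1%), fewer than the 46.2% of the other control dermal cells (45.0 to 47.3%). Without thinning the shares were 47.7% and 55.1%. Of the markers of other lineages, Myod1, Pax7, Cdh5, Sox10 and Ptprc were at 0 in the members through the gate, and Rgs5, Foxd3 and Tyrp1 without it, where a count of 0 over the members allows up to 0.341 CPM (3 counts). Other markers of these lists had UMIs. Of 6 mural markers 5 were found, summed to 108 CPM and present in 51.6% of members, against 117 CPM in the other dermal cells. Of 6 muscle markers 4 were found (10.9 CPM, up to 13 UMIs in a cell), and of 6 macrophage markers 5 (8.31 CPM, up to 45 UMIs in a cell), against 22.5 and 15.4 CPM in the other dermal cells. Endothelial (4 of 5 found), glial (2 of 5) and melanoblast markers (3 of 4) summed to 1.48, 2.84 and 2.62 CPM. The summed epidermal markers stood at 37.4 CPM in the members and 37.8 CPM in the other dermal cells.

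Compared with the other control dermal cells, the members had more transcripts of a few matrix, adhesion and signalling genes and fewer of upper dermal Wnt-related genes and of deep dermal genes. Higher were Cdh3 (P-cadherin, a cell adhesion molecule), Col8a1 (a short-chain network collagen) and Tgfb2 (a transforming growth factor beta ligand), and lower were Calb1 (the calcium buffer calbindin), Notum (an enzyme that inactivates Wnt ligands) and Runx3 (a Runt transcription factor). A gene was counted as higher or lower when its CPM, with 1 CPM added, differed at least 1.5-fold and reached 10 CPM in either set. Of 8090 genes so measured, 350 (4.33%) differed, 123 (1.52%) higher and 227 (2.81%) lower in the members, and the median log2 ratio of all measured genes was 0.01. The set compared also holds cells with more or less Crabp1, with fewer marker UMIs, or with Lef1, Gli1 or Ptch1. These ratios therefore carry the limits of the rule with them. The position of a cell in the skin was not measured.

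Col8a1 stood at 86.1 CPM in the members and 28.4 CPM in the other dermal cells, 3.04-fold higher (2.78 to 3.31). Tgfb2 stood at 75.9 and 26.3 CPM, 2.89-fold higher (2.63 to 3.17). Cdh3 stood at 42.1 and 13.4 CPM, 3.15-fold higher (2.77 to 3.57), but control epidermal cells had more, at 76.7 CPM. After thinning, a Tgfb2 UMI was found in 16.4% of members, 6.11% of the other dermal cells and 0.921% of control epidermal cells, so only a part of the members had a captured transcript. Other genes higher in the members were Ptgfr, the receptor for prostaglandin F (27.8 against 9.77 CPM), the fibrillar collagen Col24a1 (28.1 against 12.1 CPM), Nnmt, which methylates nicotinamide (27.2 against 11.2 CPM), and the atypical cadherin Fat1 (98.0 against 48.2 CPM). The transcription factor Pou3f3 (36.4 against 16.5 CPM) and Pantr1, a long noncoding RNA that starts next to it on the opposite strand (61.7 against 27.9 CPM), were both 2.21-fold higher. The TEAD cofactor Vgll3 was 2.42-fold higher in all members together, at 24.6 against 10.1 CPM, 1.58-fold in female cells and 3.48-fold in male cells. Mfap4 (453 against 237 CPM, 1.92-fold) and Col12a1, a collagen that decorates fibrils (278 against 144 CPM, 1.93-fold), were the most abundant of the named genes. The Col12a1 level was not particular to the members. It was 267 CPM in the 2039 cells that met every other limit but had less Crabp1. Cells that met every other limit but had more Crabp1, or too few marker UMIs, had 113 and 146 CPM of Col12a1. An Mfap4 UMI was found in 70.2% of thinned members, 44.2% of the other dermal cells and 0.737% of epidermal cells.

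Calb1 stood at 11.2 CPM in the members and 92.6 CPM in the other dermal cells, 8.30-fold lower (6.80 to 10.2). The calmodulin-binding Nrgn stood at 92.3 and 395 CPM, 4.28-fold lower (3.99 to 4.60). Secreted Wnt regulators were among the lowest: Notum had 3.53 against 24.1 CPM (6.82-fold) and Wif1, which binds Wnt ligands, 4.67 against 21.7 CPM (4.64-fold). The transcription factors Runx3 (5.01 against 25.6 CPM) and Casz1 (21.6 against 66.2 CPM) were also lower, as were Enpp2, which makes lysophosphatidic acid (9.44 against 36.6 CPM), and the matricellular Ccn3 (9.90 against 36.4 CPM). Sema6d (5.46 against 25.1 CPM), Nrcam (9.90 against 35.4 CPM), S100a6 (70.3 against 212 CPM) and Ass1 (16.4 against 52.9 CPM) completed the 12 genes named as lower, which were ranked with 5 CPM added among genes of at least 20 CPM in either set. All 24 genes named in this comparison kept their direction at 1.5-fold or more in each of the 12 alternative settings that can change a ratio, including female cells alone, male cells alone and cells without called doublets. At a floor of 50 CPM, 11 of the 24 were still measured. Of the 350 genes that differed, 278 also passed it in the same direction in female cells, 297 in male cells and 232 in both.

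**Figure D2:**
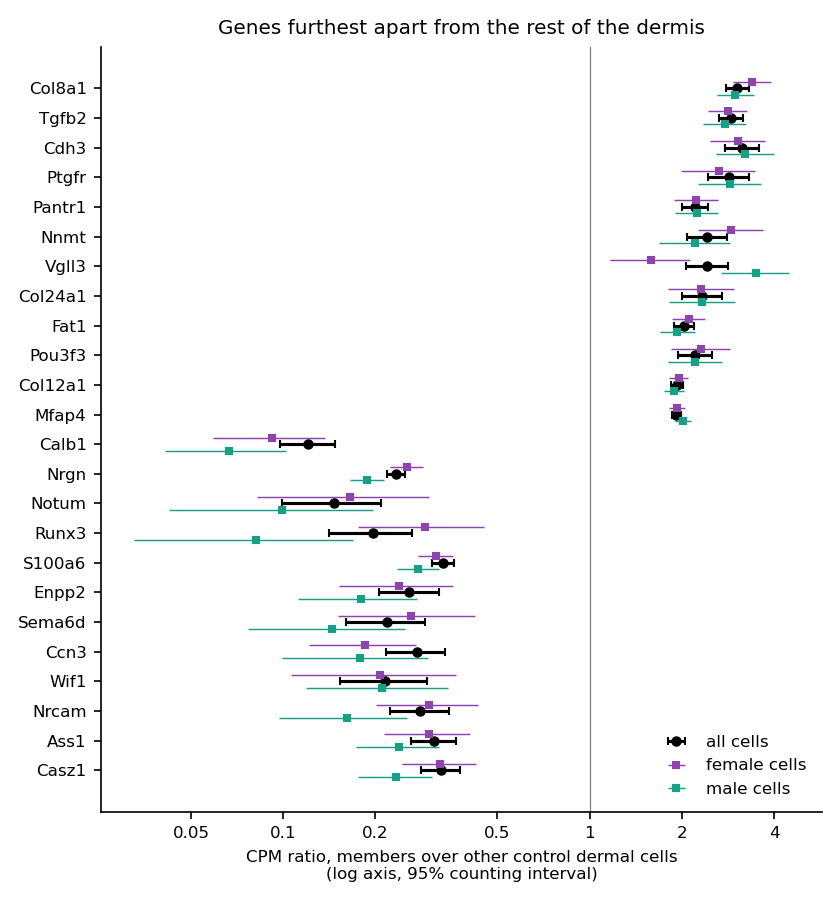
Ratio of CPM, members over other control dermal cells, for 24 named genes on a log axis, in all cells (black), female cells (purple) and male cells (green), with 95% counting intervals; the line marks a ratio of 1. Cdh3 lies at 3.15, Calb1 furthest to the left at 0.120, and Vgll3 shows 1.58 in female and 3.48 in male cells.

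Matrix genes differed singly. Of 21 fibrillar and associated collagens 17 were measured, of which 2 were higher (Col12a1, Col8a1), 2 lower (Col11a1, Col6a3) and 13 neither (median log2 ratio -0.04). Of 16 elastic fibre genes 15 were measured, 3 higher and 3 lower, with a median of -0.04. The higher ones were Mfap4, Fbln5 (95.9 against 49.2 CPM) and Efemp1 (83.4 against 43.5 CPM), and the lower ones Mfap5 (4.55 against 13.6 CPM), Fbln1 (178 against 290 CPM) and Ltbp4. Of the small leucine-rich proteoglycans other than Aspn and Ogn, 4 were measured, and Kera (16.6 against 9.06 CPM) was the single one past 1.5-fold. Lum differed little, at 877 against 749 CPM. Among 12 measured matricellular genes 3 were higher, with a median of 0.39: Thbs1 (98.7 against 60.5 CPM), Thbs2 and Smoc2 (189 against 119 CPM), while Ccn3 was lower. The enzyme Has2, which makes hyaluronan, and its receptor Cd44 were lower, Has2 at 6.6 against 24.8 CPM.

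Wnt target genes other than Lef1, which the rule removed, were mostly lower or little different in the members. Of 17 Wnt targets and feedback genes 11 were measured and 6 were lower, none higher, with a median log2 ratio of -0.72. They were Nkd1 (47.3 against 105 CPM) and Dkk1 (24.7 against 50.3 CPM), which restrain the pathway, and Notum, Sp5, Tcf7 and Bambi. In female cells 4 of 11 were lower and 1 higher, with a median of -0.40. Rspo1, which enhances Wnt signalling and also stands among the upper dermis genes, was higher at 152 against 95.2 CPM. Of 12 measured upper dermis genes 4 were lower and Rspo1 alone higher, and of 9 measured deep dermis and fascia genes 4 were lower and none higher, with medians of -0.45 and -0.49. Hedgehog receptors and transducers other than the rule genes were within 1.5-fold, 8 of 8 measured.

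Ligands of the BMP and TGF-beta family divided. Among 15 measured genes, Bmp2 (21.3 against 13.3 CPM), Tgfb2 and Tgfb3 (11.8 against 6.94 CPM) were higher, and Bmp4 (20.9 against 47.3 CPM), Gdf10, Bambi and the BMP antagonist Grem1 (9.90 against 28.8 CPM) lower, with a median of 0.09. Of 11 measured FGF pathway genes 4 were lower, the receptor Fgfr2 and the response genes Etv4 (1.25 against 10.3 CPM), Etv5 and Dusp6. Among chemokine genes, Cxcl12 (243 against 155 CPM), Cxcl14 (660 against 396 CPM) and Ccl2 (21.7 against 12.9 CPM) were higher of 5 measured, although in female cells a single one of 6 was. Axon guidance genes were mixed, with 4 higher and 3 lower of 21. Sema3c (59.2 against 32.1 CPM) and its receptor Nrp2 (100 against 63.2 CPM) were higher, and Plxna4 (2.16 against 15.4 CPM) and Sema3d lower. Of 27 measured dermal transcription factors Pax1 was higher (37.8 against 20.0 CPM), and Irx3 (54.7 against 104 CPM), Irx5 (81.9 against 134 CPM), Klf4 and Casz1 lower. The tendon factor Scx was higher, at 18.7 against 6.27 CPM. All 22 measured S phase genes and all 22 measured G2M genes stayed within 1.5-fold, with medians of -0.11 and -0.34.

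The nearest counterparts differ from the members by a single limit. Among them, 99 cells met every limit but had a Lef1 UMI (23.2% called doublets), and 48 had a Gli1 or Ptch1 UMI instead (8.33%). In that order, Col8a1 stood at 75.6 and 60.7 CPM (86.1 CPM in the members) and Fat1 at 70.0 and 84.5 CPM (98.0 CPM). Col24a1 stood at 21.5 and 28.2 CPM (28.1 CPM), Cdh3 at 27.1 and 28.2 CPM (42.1 CPM) and Calb1 at 46.6 and 15.2 CPM (11.2 CPM). Col12a1 stood at 201 and 273 CPM (278 CPM) and Mfap4 at 289 and 412 CPM (453 CPM). The 2039 Crabp1-low cells met every limit but had less than 0.05% Crabp1, and compared with them the members had more transcripts of Casz1, Dkk1 and Sp5 and fewer of deep dermal genes. Of 8165 genes, 588 (7.2%) differed, 217 (2.66%) were higher in the members and 371 (4.54%) lower, with a median log2 ratio of 0.03. Casz1 stood at 21.6 against 1.33 CPM, 16.2-fold higher (10.2 to 27.2), and Dkk1 at 24.7 against 2.06 CPM, 12-fold higher (8.19 to 18.1). Sp5, a Wnt-responsive transcription factor, had 30.04 against 2.86 CPM. Nrgn, Lix1 and the homeobox gene Irx3 were also higher, Irx3 at 54.7 against 9.91 CPM. Ccn3 was lower at 9.90 against 65.4 CPM, 6.61-fold (5.30 to 8.32), and so were the homeobox factor Meox2 (4.10 against 30.1 CPM), Ebf3, of a family linked to adipocyte precursors (5.80 against 36.1 CPM), the matrix protease Adamts5 (10.8 against 64.2 CPM), the potassium channel Kcnj8 (7.51 against 48.1 CPM) and Sema3d (7.28 against 40.8 CPM).

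Deep dermal genes were lower as a list against the Crabp1-low cells: 8 of 9 measured were lower, with a median of -1.41. Among these were Dlk1, an inhibitor of adipocyte differentiation (1739 against 2857 CPM), and Sfrp2, a secreted Wnt modulator (157 against 420 CPM). Of 9 measured early adipogenic genes 6 were lower, with a median of -0.72, and of 17 collagens 6 were lower, Col14a1 among them at 243 against 568 CPM. Of 10 measured Wnt targets 5 were higher and 1 lower, with a median of 0.48. Of 13 measured genes of dissociation and stress 7 were lower, with a median of -0.69; their part in the other differences was not tested. Markers of other cell types were lower in the members too. Of 5 measured mural markers Kcnj8 and Abcc9 (2.73 against 13.2 CPM) were lower, with a median of -0.52, and the list summed to 108 against 161 CPM. The muscle gene Actc1 (6.71 against 17.0 CPM) and the neuronal gene Stmn2 (5.46 against 15.0 CPM) were lower as well, and the part of these markers was not tested. The thinned share with a G2M UMI was 28.8% in the Crabp1-low cells, below the 37.1% of the members, and the doublet share was 1.08%, against 6.59%. Without called doublets 553 of the 588 genes still differed in the same direction. In cells without G2M UMIs 475 did, and 386 did in both female and male cells.

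The 146 Crabp1-high cells, with 0.3% or more, had fewer transcripts of Thbs2 and Rgcc and more of Dkk1 and Zeb2 than the members. Of 8174 genes, 1018 (12.5%) differed, 636 (7.78%) were higher in the members and 382 (4.67%) lower, with a median log2 ratio of 0.00. Thbs2 (thrombospondin 2) stood at 48.7 against 9.63 CPM, 5.06-fold higher (2.93 to 9.58), and the cell cycle regulator Rgcc at 116 against 32.6 CPM, 3.57-fold higher (2.64 to 4.94). Hpgd, which degrades prostaglandins (33.5 against 7.41 CPM), and the transcription factors Bnc2 (25.6 against 5.92 CPM) and Sim1 (23.4 against 5.18 CPM) were also higher. Rarres2 (chemerin) had 20.1 against 2.96 CPM, where the lower value rests on 4 UMIs. Dkk1 was lower at 24.7 against 116 CPM, 4.71-fold (3.81 to 5.81), and so were Zeb2 (53.6 against 177 CPM), Nrgn (92.3 against 330 CPM), Calb1 (11.2 against 47.4 CPM), Ass1 (16.4 against 73.3 CPM) and Has2 (6.6 against 28.9 CPM). By list, 7 of 11 measured matricellular genes were higher and none lower, with a median of 0.72, and 5 of 9 IGF genes, with a median of 0.84. Of 12 measured stress genes 8 were higher, with a median of 0.94. Of 12 measured upper dermis genes 6 were lower and 2 higher, with a median of -0.59. The Crabp1-high cells were 17.1% called doublets, against 6.59% of members. Without called doublets 890 of the 1018 genes still differed in the same direction, with Thbs2 8.55-fold and Rgcc 7.13-fold higher and Dkk1 5.74-fold lower. Fewer did so in other settings: 750 in cells without G2M UMIs, 755 after thinning and 518 in both female and male cells. With 5 or more marker UMIs 678 did, and 2 differed in the opposite direction.

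Across the whole range of Crabp1, in cells that met the other limits, the members held the middle of some gradients and the top of others. Some genes of these series were chosen after their values were seen. In order of Crabp1 share, the ranges were under 0.01%, to 0.05%, to 0.1%, to 0.2%, to 0.3% and 0.3% or more, with 1031, 1008, 496, 443, 154 and 146 cells. The middle 3 ranges are the members. Nrgn was higher in each range than in the one before, at 11.1, 15.8, 34.6, 94.6, 235 and 330 CPM. Twist2, a repressor of mesenchymal differentiation, showed the same order, at 98.2, 108, 162, 217, 275 and 347 CPM. Irx3 stood at 5.14, 14.5, 29.6, 58.3, 111 and 143 CPM.

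Mfap4 peaked within the members, at 313, 386, 500, 454, 333 and 248 CPM. Tgfb2 stood at 41.1, 40.0, 81.5, 84.9, 40.0 and 35.5 CPM, so its high level lay in the members with 0.05% to 0.2% Crabp1 and not in those above. Col8a1 stood at 35.9, 55.5, 93.9, 89.2, 59.0 and 47.4 CPM. The same middle ranges were highest for Cdh3 (47.1 and 47.0 CPM, 17.6 CPM in the uppermost member range) and Cxcl14 (648 and 704 CPM, 336 CPM in the lowest range). Sfrp2 was lower in each range than in the one before, at 472, 370, 202, 134, 101 and 58.5 CPM. Ccn3 stood at 84.7, 46.7, 13.8, 5.38, 10.8 and 8.15 CPM.

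Doublet calls and cycling cells moved with these ranges. Called doublets were 1.16%, 0.992%, 3.02%, 6.77%, 17.5% and 17.1%, and thinned cells with a G2M UMI 26.8%, 30.8%, 31.4%, 37.7%, 53.9% and 48.3%. Without called doublets and without barcodes that held both Xist and Y-linked UMIs, Nrgn still stood at 10.6, 15.4, 32.7, 79.8, 166 and 259 CPM and Mfap4 at 316, 391.8, 512, 479, 344 and 257 CPM. Ccn3 then stood at 86.2, 46.4, 10.2, 2.31, 1.03 and 2.15 CPM. The part of cell cycling in these series was not tested.

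**Figure D3:**
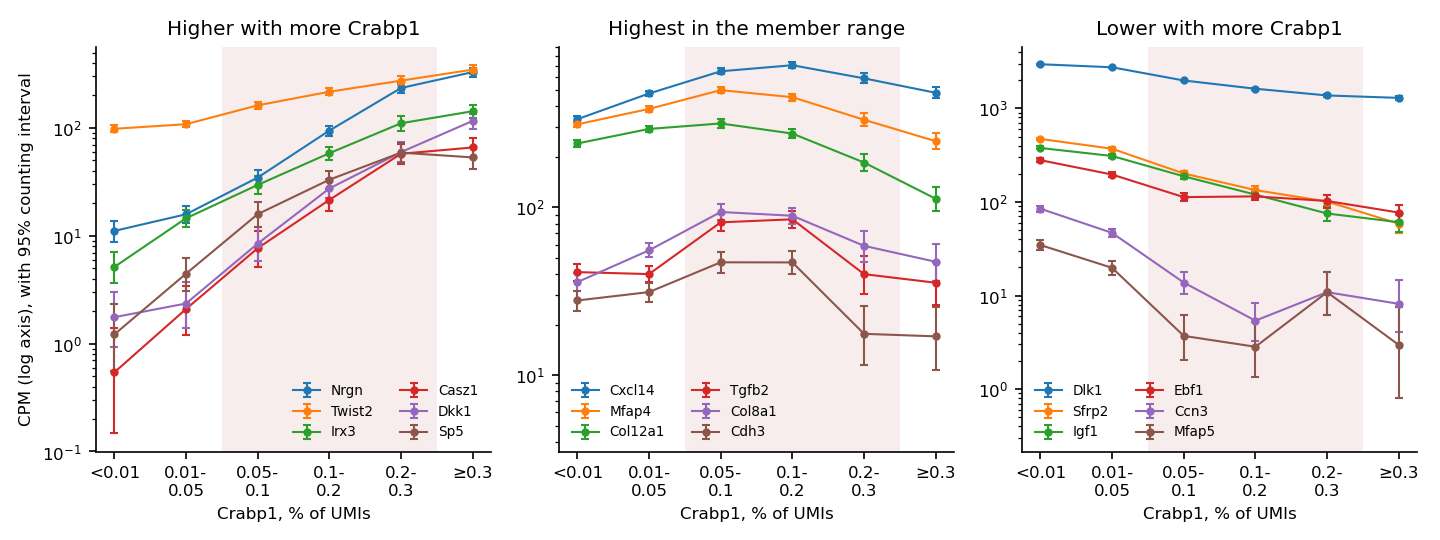
CPM of 18 genes on a log axis in control dermal cells that met all limits but that on Crabp1, by Crabp1 share, with 95% counting intervals; the shaded ranges are the members. Mfap4 peaked in the members at 500 CPM, Nrgn reached 330 CPM above them, and Sfrp2 was highest below them at 472 CPM.

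The 868 few-marker cells met every limit but had fewer than 3 UMIs of Aspn, Ogn and Fibin. They lay in the same Crabp1 range, but their summed Crabp1 was 1749 CPM against 1301 CPM in the members, and Nrgn was among the genes that were higher with Crabp1. Here 418 of 8056 genes (5.19%) differed, of which 231 (2.87%) were higher in the members and 187 (2.32%) lower, with a median log2 ratio of 0.00. Rgcc stood at 116 against 31.8 CPM, 3.66-fold higher (3.13 to 4.28). Nrp2, the receptor for class 3 semaphorins, stood at 100 against 28.7 CPM, 3.49-fold higher (2.97 to 4.12). Cdh3 (42.1 against 13.6 CPM) and Rgs7bp, a membrane anchor of G protein regulators (21.4 against 4.38 CPM), were also higher. Nrgn (92.3 against 363 CPM), Calb1 (11.2 against 50.5 CPM) and Notum (3.53 against 22.2 CPM) were lower. Of 19 measured guidance genes 6 were higher and none lower, and of 11 measured Wnt targets 5 were lower and none higher. The macrophage chemokine Pf4 was lower at 2.39 against 20.8 CPM, but 60 of the 128 UMIs in the few-marker cells came from 1 cell and 16 of the 21 in the members from another. The summed macrophage markers were 8.31 CPM in the members and 39.4 CPM in the few-marker cells. The few-marker cells had a thinned G2M share of 52.8%, against 37.1% in the members. Of the 418 genes, 393 still differed in the same direction without called doublets, 266 in cells without G2M UMIs and 218 in both female and male cells.

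The members varied among themselves with Aspn, in a split whose genes were chosen after their values were seen. The 530 members with an Aspn UMI and the 563 without differed in 181 (2.24%) higher and 226 (2.79%) lower of 8097 genes. Rgcc stood at 202 CPM with Aspn and 39.3 CPM without, 5.14-fold higher (4.37 to 6.06). Scx stood at 33.9 against 4.97 CPM, 6.82-fold higher (4.37 to 11.1), and Tnc (tenascin C, a matrix protein of tendon and remodelling tissue) at 28.1 against 5.4 CPM. Nppc, the C-type natriuretic peptide (70.9 against 15.6 CPM), Nrp2 (160 against 46.7 CPM), Gfra1, a receptor for the neurotrophic factor GDNF (37.0 against 8.21 CPM), Ccl2 (34.9 against 9.94 CPM) and Pou3f3 (53.4 against 21.2 CPM) were higher too. Lower with Aspn were the transcription factor Gata6 (7.93 against 26.8 CPM), S100a6 (35.8 against 101 CPM), Crip1 (191 against 443 CPM), Efemp1 (50.5 against 113 CPM) and Hoxc5 (26.0 against 71.9 CPM). The thinned G2M share was 32.0% with Aspn and 41.9% without, and called doublets were 4.15% and 8.88%. The median depth was 7195 UMIs with Aspn and 7346 without. Without called doublets and barcodes with both Xist and Y-linked UMIs, an alternative added after seeing the data here and in the splits that follow, 158 of the 181 higher and 187 of the 226 lower genes still differed in the same direction, with Rgcc 5.63-fold and Scx 9.92-fold higher. The part of cycling was not tested.

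**Figure D4:**
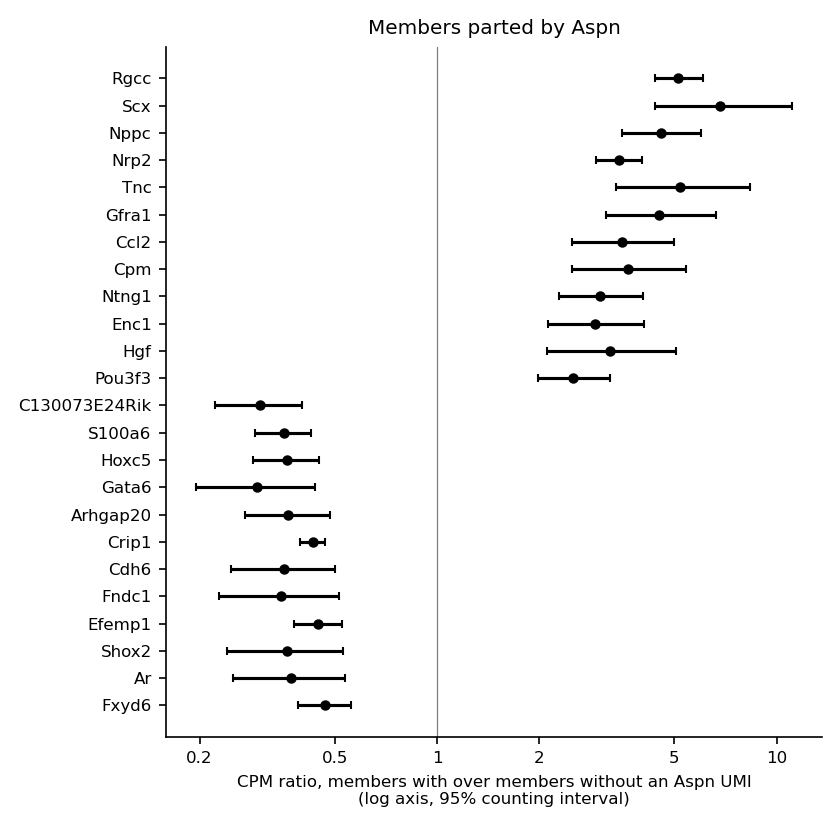
Ratio of CPM, members with over members without an Aspn UMI, on a log axis with 95% counting intervals, for the 12 genes highest and the 12 lowest by the ranking used for named genes. Scx lies furthest to the right at 6.82, and Gata6 furthest to the left at 0.296.

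Members with more Crabp1 had more Nrgn and Casz1 and less Rgcc than those with less Crabp1. Between the 154 members at 0.2% to 0.3% and the 496 at 0.05% to 0.1%, 543 (6.57%) of 8271 genes were higher and 480 (5.8%) lower. Nrgn was 6.77-fold and Casz1 7.52-fold higher in the former, while Rgcc was 5.07-fold, Thbs2 3.54-fold and Nrp2 3.50-fold lower. The former were 17.5% called doublets and 14.3% barcodes with both Xist and Y-linked UMIs, the latter 3.02% and 4.23%, and their thinned G2M shares were 53.9% and 31.4%. Without those barcodes 362 of the 543 higher and 382 of the 480 lower genes still differed in the same direction. Nrgn was then 5.09-fold and Casz1 5.90-fold higher, and Rgcc 9.81-fold, Thbs2 3.47-fold and Nrp2 4.39-fold lower. Between the 139 members with 11 or more marker UMIs and the 518 with 3 to 5, 499 (6.07%) of 8222 genes were higher and 362 (4.4%) lower. Scx was 4.93-fold, Nrp2 3.04-fold and Rgcc 2.53-fold higher with more marker UMIs. In that order, the median depth was 8249 and 6881.5 UMIs and the thinned G2M share 30.2% and 41.3%. Called doublets were 2.88% and 6.56%, and barcodes with both Xist and Y-linked UMIs 11.5% and 5.02%. Without those barcodes 388 of the 499 higher and 278 of the 362 lower genes still differed in the same direction. The part of depth and cycling was not tested. Female members had a thinned G2M share of 31.5% and male members 42.1%. They come from different embryos of the pool, and sex and embryo cannot be told apart.

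In the mutant library 135 of 4272 dermal cells met the same rule, 3.16% (2.66 to 3.73%) against 12.9% in the control library. The limit on Gli1 and Ptch1 removed most of the mutant cells: 43.5% of mutant dermal cells had no UMI of either, against 94.1% of control ones. Without this limit 8.01% of mutant dermal cells met the rule, against 13.48% of control ones. Fewer mutant dermal cells also had 3 or more marker UMIs, 28.4% against 42.9%, while Crabp1 lay in the range in 35.9% against 28.2% and Lef1 was absent in 83.1% against 84.8%. Mutant dermal cells had a median of 6309.5 UMIs and control ones 7119, and the part of depth in these shares was not tested. Gli1 stood at 3.26 CPM in the other control dermal cells and 34.2 CPM in the other mutant dermal cells. The eYFP transcript was found in 14 of the 135 mutant cells, at 17.0 CPM. Genotype, library and embryos cannot be told apart here.

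**Figure D5:**
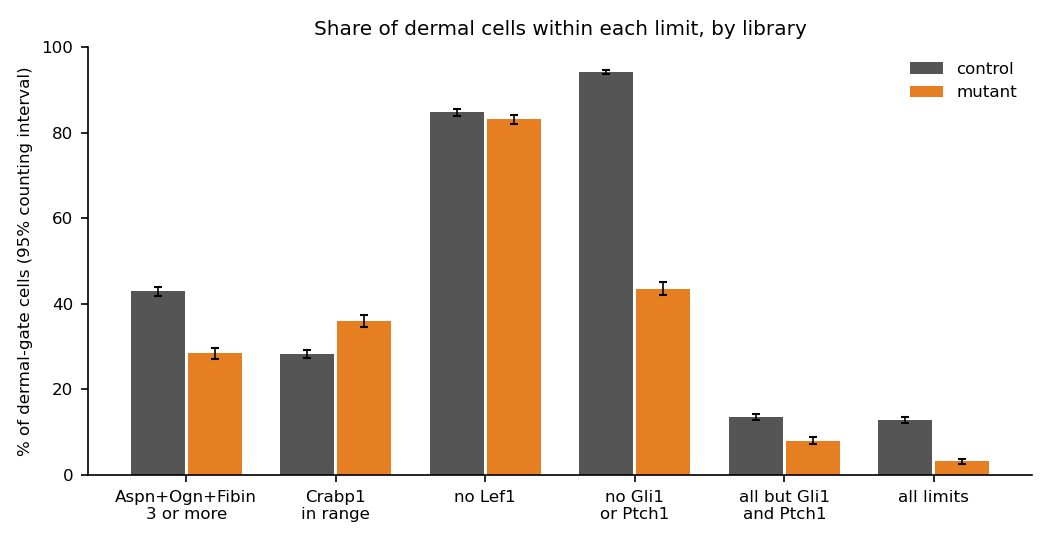
Percentage of control and mutant dermal cells that met each limit of the rule and the whole rule, as bars from 0 with exact binomial 95% intervals. The limit on Gli1 and Ptch1 was met by 94.1% of control and 43.5% of mutant cells, and the whole rule by 12.9% and 3.16%.

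Against these 135 mutant cells, 1361 (16.4%) of 8324 genes differed, with 688 (8.27%) higher in the members and 673 (8.09%) lower and a median log2 ratio of -0.01. The mutant cells had a thinned G2M share of 55.2%, against 37.1% in the members, and 0 called doublets, against 6.59%. Without called doublets 1279 of the 1361 genes still differed in the same direction. In cells without G2M UMIs 874 did, and 6 differed in the opposite direction. After thinning 972 did, with 1 opposite, and 531 did in both female and male cells. The part of cycling in these differences was not tested. Zic1, a zinc finger transcription factor, stood at 47.0 CPM in the members and 4.52 CPM in the mutant cells, 10.4-fold higher (4.03 to 38.3). Casz1 had 21.6 against 2.26 CPM, 9.56-fold higher (2.61 to 79.5), where the mutant value rests on 2 UMIs. Scube2, which helps release Hedgehog ligand (29.7 against 5.65 CPM), the netrin family gene Ntng1 (29.6 against 5.65 CPM) and Nrgn (92.3 against 24.9 CPM) were also higher. Klf2 was 5.74-fold higher (32.4 against 5.65 CPM), but 1.61-fold when the mutant cells were taken without the limit on Gli1 and Ptch1, an alternative chosen after seeing the data. Tgfb2 (75.9 against 20.4 CPM) and Mfap4 (453 against 242 CPM) were higher as well.

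Cdkn1a, the cell cycle inhibitor p21, was lower in the members at 1.25 against 75.8 CPM, 60.5-fold (31.8 to 127), and 42.6-fold without the limit on Gli1 and Ptch1. It was 63.7-fold lower in female and 97.3-fold lower in male cells. The noncoding AA465934 (2.503 against 79.2 CPM) and Fxyd7, a regulator of the sodium pump (4.78 against 103 CPM), were also lower. Hhip, a Hedgehog target that binds the ligand, stood at 3.64 against 49.8 CPM, with Gli1 and Ptch1 at 0 in both sets by the rule. Of 8 measured smooth muscle contractile genes 5 were lower in the members and none higher, with a median of -0.59, among them Acta2 (194 against 672 CPM) and Tagln (104 against 446 CPM). Of 27 measured dermal transcription factors 13 were higher and 3 lower, with a median of 0.53, with Irx1 at 282 against 126 CPM and Twist2 at 203 against 114 CPM. Of 11 measured deep dermis genes 6 were lower and 1 higher, with a median of -1.25, and Meox2 had 4.10 against 45.2 CPM. The hemoglobin genes Hbb-bt (13.7 against 140 CPM), Hbb-bs (70.4 against 563 CPM) and Hba-a1 (35.6 against 253 CPM) were lower in the members. The summed red cell genes were 149 CPM against 1049 CPM, and 858 to 1049 CPM over the mutant groups that were measured. Its part in the other differences was not tested.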

How the data were processed

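UMI count matrices of 10x Genomics 3′ libraries, 1 per group, were used as the authors deposited them: whole-number counts per gene and barcode over 32286 features, made with Cell Ranger 5.0.1 on mm10 per the submitters' processing notes. The libraries held 13566 and 11909 barcodes, with a lowest total of 500 UMIs. Cells were selected by the stated limits, and UMIs were summed over each set of cells and scaled to CPM. CPM carry exact Poisson, ratios exact conditional binomial and shares exact Clopper-Pearson 95% intervals. Beside a count of 0 the level of 3 counts is given. UMIs of 1 cell are not independent of each other, and no interval shows the spread between animals. No p-value was computed. The ratio script was tested on simulated data. Scrublet (scanpy 1.11.5) ran per library at an expected rate of 8%, and no doublet was removed. The libraries shared 48 barcodes, 3 of them members. Gene lists (42 lists, 533 genes) were summarised by counts and medians, without the rule genes.

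Named genes had the largest ratios either way with 5 CPM added, among genes of at least 20 CPM in either set and outside the rule: 12 each against the other dermal cells, 4 each against the few-marker cells and 6 each in the other comparisons. Genes of the lists were added, by level or ratio. Genes of the splits among members followed the same ranking, applied after the data were seen, and some gradient genes were chosen then too. Female cells had Xist and no Y-linked UMI, male cells the reverse. The members, lists and limits were chosen with earlier results of these data known. Positions are from GENCODE M21, which held 32158 of the features. Software was Python 3.11.15, numpy 2.4.6, scipy 1.17.1 and pandas 2.3.3.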

Additional observations from a re-analysis of the deposited data

How the results depend on the processing

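With 1 library per group, no setting tests a difference between animals, and these counts rest on fixed limits of ratio and level. The counts of genes past 1.5-fold moved with the limits and with the number of cells compared; the cause was not tested. In the order other dermal cells, Crabp1-high, Crabp1-low, few-marker and mutant cells, the main counts were 350, 1018, 588, 418 and 1361. They were 75, 181, 163, 90 and 239 at a floor of 50 CPM, 999, 3753, 1735, 1420 and 4676 with no floor, and 160, 422, 308, 154 and 547 with 10 CPM added. Against the Crabp1-high, few-marker and mutant cells they were 2182, 841 and 2328 in female cells, 1925, 739 and 2892 in male cells, 2404, 703 and 2855 in cells without G2M UMIs, and 2156, 730 and 2421 after thinning. With 5 or more marker UMIs they were 1688 against Crabp1-high and 2131 against mutant cells. Gates applied after thinning gave 596 against the other dermal cells, 2798 against Crabp1-high and 3036 against mutant cells. The share of members, 12.9%, was 8.44% with 5 or more marker UMIs, 6.85% with gates after thinning, 11.1% in female cells, 13.8% in male cells and 14.7% in cells without G2M UMIs. For the 24 genes named against the other dermal cells, 89 of 288 values under the 12 settings that can change a ratio lay outside the main counting interval and none reversed. Leaving out called doublets kept 347 of the 350 calls, and leaving out barcodes with Xist and Y-linked UMIs, chosen after seeing the data, kept 345. No paired analysis was possible because each group has 1 library and no result comes from a test.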

Other observations

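Against the other control dermal cells, where 4.33% of all measured genes passed 1.5-fold, other fixed lists were uneven. Of 15 measured adhesion genes 2 were higher (Ncam1, Itga9) and 5 lower (Itga8, Nrcam, Alcam, Thy1, Tnfrsf19), with a median log2 ratio of -0.21. Of 10 measured IGF genes the binding protein Igfbp2 was higher (206 against 129 CPM), with a median log2 ratio of 0.21, and of 10 measured Hox genes Hoxc10 was higher and Hoxa7 lower. The contractile actin-binding gene Tpm1 was higher of 8 measured smooth muscle genes, at 1890 against 1102 CPM, and none of 4 measured PDGF genes passed 1.5-fold.

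Across 1080 members thinned to 3000 UMIs, the variance of a gene's UMIs was at a median 1.06 times its mean over 1518 genes. The widest spread was that of the noncoding Malat1 (10.9 times the mean) and of Ptn, the growth factor pleiotrophin (9.33 times), followed by the cell cycle genes Hmgb2 (4.60 times) and Ube2c (4.52 times). Cpa3, a protease of mast cells, was singled out after its values were seen: 78 of its 81 UMIs in the members came from 1 cell.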
